A study of Mus musculus with 8 samples.

Results

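The 6 genes described here are Nr1h4, Nr0b2, Fgf15, Rxra, Nr5a2 and Fgfr4, which carry the bile acid signal from the ileum to the liver. They were taken as every probe set whose only gene symbol in the platform annotation was one of these names, which gave 12 of the 45037 probe sets that are not controls, and 6 of 17097 genes read by such a probe set. Fgfr4 had 5 probe sets, Rxra had 3, and Nr1h4, Nr0b2, Fgf15 and Nr5a2 had 1 each. A probe set is a group of short array probes that read the same transcript. The rule goes by name and uses no measured value.

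The samples were ileal tissue of 4 Slc51a knockout mice and 4 wild type mice, 1 array each. All were male, on a C57BL/6 background, about 2 months old, and had gone 4 hours without food before ketamine-xylazine anaesthesia and decapitation. Slc51a encodes a subunit of the transporter that passes bile acids out of the enterocyte at its basolateral side. The sources used here do not say how the allele was made, or where its inactivated part lies relative to the Slc51a probe set. Values are log2 signals, so that 1 unit is a doubling, and every difference is Slc51a knockout minus wild type.

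FXR, encoded by Nr1h4, is a nuclear receptor that bile acids activate. It binds DNA together with RXR alpha, encoded by Rxra, at paired hexamer sites called inverted repeats. In ileal enterocytes it induces Fgf15, a hormone that reaches the liver, acts there on Fgfr4 with the co-receptor Klb, and lowers bile acid synthesis by Cyp7a1. Nr0b2 encodes SHP, an atypical receptor with no DNA-binding domain that represses other receptors, among them LRH-1, encoded by Nr5a2.

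Promoter letters are printed for target genes whose windows held a motif match: Nr0b2, and the FXR targets Slc51b and Fabp6. They are the 250 bases before the start site in RefSeq of mouse build GRCm38.p6, and the capitals mark the motif match named after them.

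Nr0b2, chr4:133553126-133553375, plus strand: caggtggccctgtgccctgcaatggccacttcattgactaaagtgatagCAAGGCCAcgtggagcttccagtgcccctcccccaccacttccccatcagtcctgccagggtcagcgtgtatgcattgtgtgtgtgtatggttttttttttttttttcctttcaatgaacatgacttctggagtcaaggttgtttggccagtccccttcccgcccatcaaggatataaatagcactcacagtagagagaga
Slc51b, chr9:65422774-65423023, minus strand: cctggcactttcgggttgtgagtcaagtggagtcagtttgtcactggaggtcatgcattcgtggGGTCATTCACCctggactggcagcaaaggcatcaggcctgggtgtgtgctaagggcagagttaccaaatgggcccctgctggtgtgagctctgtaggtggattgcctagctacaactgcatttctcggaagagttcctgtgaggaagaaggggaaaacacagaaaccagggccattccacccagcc
Fabp6, chr11:43601563-43601812, minus strand: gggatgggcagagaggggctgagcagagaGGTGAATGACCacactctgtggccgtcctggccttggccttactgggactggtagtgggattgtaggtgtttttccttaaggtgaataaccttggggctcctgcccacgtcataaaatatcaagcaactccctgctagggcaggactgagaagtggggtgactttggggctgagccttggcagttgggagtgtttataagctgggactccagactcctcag

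In Slc51b and Fabp6 the capitals mark matches to the inverted repeat spelling GGTCANTNACC, which 0.119% of 32851 promoters of this length held on either strand. This spelling leaves a base of the repeat free, and there both matches differ from the strict spelling GGTCANTGACC. The strict spelling matched in none of the printed windows. The Slc51b match covers bases -186 to -176 from the start site and the Fabp6 match, on the other strand, bases -221 to -211. In Nr0b2 the capitals mark CAAGGCCA, a spelling of the LRH-1 site, at bases -201 to -194, which 1.99% of promoters held. Fabp6 held it too, on the other strand at bases -193 to -186, printed in lower case. No inverted repeat spelling matched in the Nr0b2 window. In all, 11 spellings were searched on both strands: GGTCANTGACC, GGTCANTGAAC, GGTTCANTGACC, GGTCANTNACC, GGTCANTNAAC, the hexamer AGGTCA, its extended form AAGGTCA, and CAAGGTCA, TCAAGGTCA, CAAGGCCA and TCAAGGCCA. The shorter ones lie within some of the longer ones. AGGTCA, found in 14.0% of promoters, matched in windows of Nr5a2, Rxra, Nr1h4 and Slc51b, and one of its matches in Rxra is part of a match to AAGGTCA. No spelling matched in the windows of Fgfr4 and Slc10a2, and the table held no entry for Fgf15. These matches describe letters only.

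The Slc51a signal was 4.67, 4.50, 4.68 and 4.56 in the knockout samples, against 11.36, 11.41, 11.29 and 11.37 in wild type. The median signal over the array was 4.58, and the knockout samples lay on either side of it. Of the 4 ileal enterocyte markers, Fabp6, Slc10a2 and Slc51b lay above 10 on every array. Cubn, a receptor for vitamin B12 uptake, lay at 8.81 to 9.47 on the knockout arrays and at 10.49 to 10.88 on the wild type arrays, and fell by 1.61 (limma adjusted p = 1.2e-05). This list fell in 3 of 4 members, with a mean of 11.04 to 11.19 on the knockout arrays against 11.61 to 11.77 on the wild type arrays. By contrast, the hepatocyte marker Alb averaged 4.12 in the knockout and 4.21 in wild type, under the array median of 4.58. Of the 6 hepatocyte markers, 4 averaged under that median in both genotypes. Above it were Ttr, at 6.57 in the knockout and 5.37 in wild type, and Apob, at 6.51 and 7.68. Markers of other cell types differed with genotype, in a data set where 12.0% of all genes were called lower and 28.4% called in either direction. The smooth muscle markers fell in 6 of 6 members, with a mean log2 level of 8.73 to 8.99 on the knockout arrays against 9.51 to 10.01 on the wild type arrays. The T lymphocyte markers fell in 4 of 4 (5.47 to 5.59 against 6.42 to 6.56), the B lymphocyte markers in 3 of 3 (5.22 to 6.33 against 6.60 to 7.42), and the myeloid markers in 4 of 5 (8.71 to 8.83 against 9.03 to 9.24). The general enterocyte markers fell in 3 of 6, with means of 11.46 to 11.51 against 11.75 to 11.84. Some of these values were near the floor of the arrays. Cd3g, a T lymphocyte marker, was at 4.31, 4.56, 4.50 and 4.72 in the knockout samples. Ms4a1, a B lymphocyte marker, was at 4.45 in knockout replicate 1. These lie within the non-specific range described below for Nr0b2. In tissue of several cell types, fewer cells of a type cannot be told apart from less RNA per cell. The part of the cell type markers in the results below was not tested.

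Across the 12 probe sets no genotype difference passed the test, in a data set where 21.6% of all probe sets did. Over all 45037, 11.8% passed as higher and 9.81% as lower. With limma and Benjamini-Hochberg adjustment over 45037 probe sets, 0 of 12 had an adjusted p under 0.05, and 1, that of Nr5a2, had an unadjusted p under 0.05. Of all probe sets 31.9% had an unadjusted limma p under 0.05. The groups overlapped for all 12, while 23.8% of all probe sets had groups that did not. Of the differences 6 were positive and 6 negative, from -0.11 for Nr1h4 to 0.54 for Fgf15, with a median of -0.002 beside 0.005 over all probe sets.

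**Figure D1:**
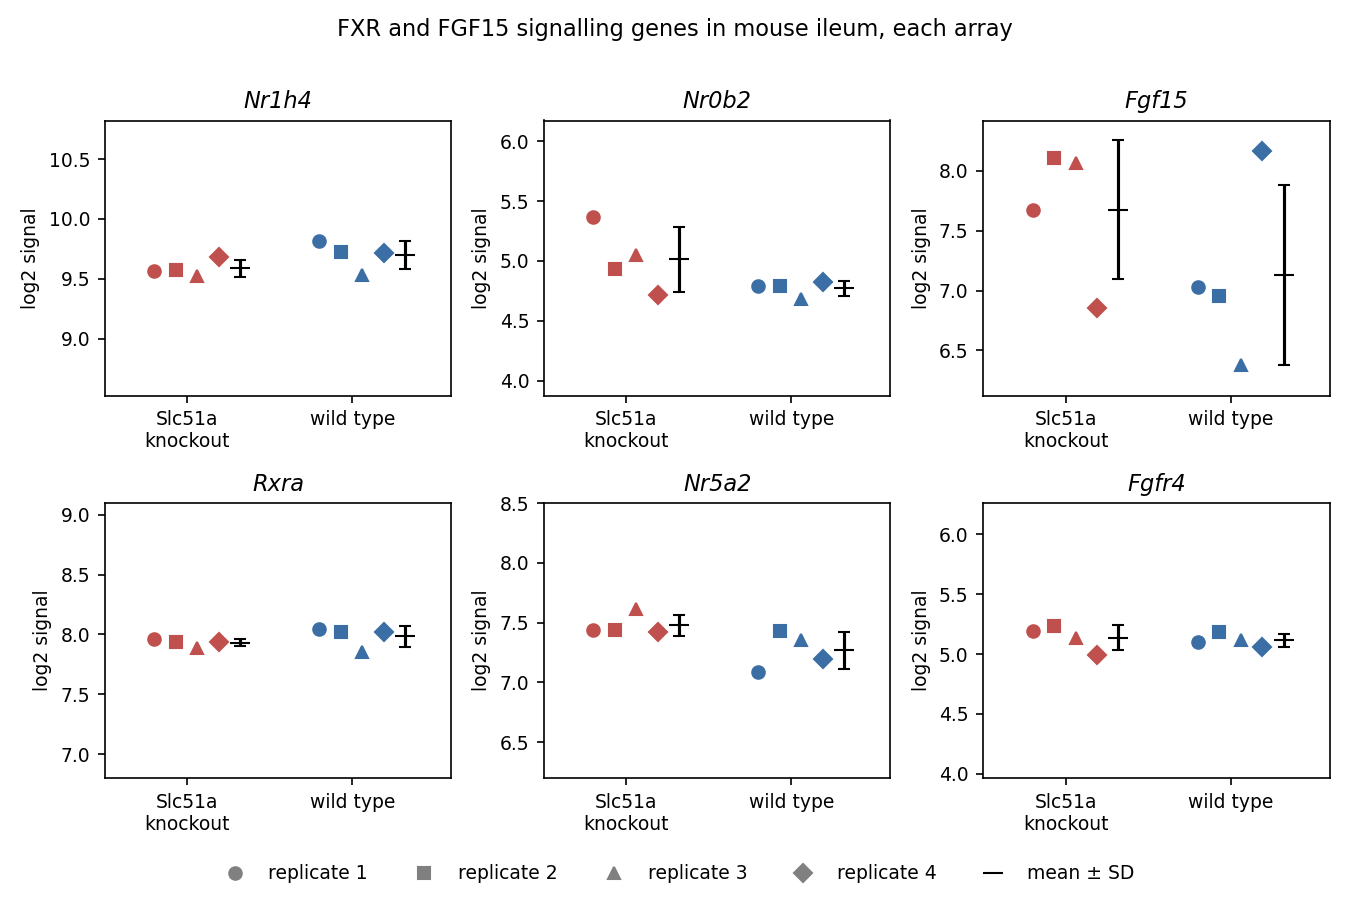
Log2 signal of the brightest probe set of each of the 6 genes on each array, Slc51a knockout in red and wild type in blue, with marker shape giving the replicate number and the bar giving the mean ± SD of 4 arrays. Every panel spans the same number of log2 units, and Fgf15 spreads over 1.79 units while Rxra spreads over 0.19.

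The receptor gene Nr1h4 differed little between the genotypes. Its signal was 9.56, 9.57, 9.53 and 9.68 in the knockout samples, against 9.82, 9.73, 9.53 and 9.72 in wild type. Wild type replicates 1, 2 and 4 lay above every knockout sample, and wild type replicate 3 lay among them. The mean was 9.59 ± 0.07 in the knockout and 9.70 ± 0.12 in wild type (SD, n = 4 each). The difference of -0.11 (SE 0.06, limma adjusted p = 0.266) has a 95% confidence interval of -0.26 to 0.03, which is 0.838-fold to 1.02-fold. After cyclic loess normalisation it was -0.20 and passed (adjusted p = 0.0411).

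Rxra, the partner of FXR on DNA, was the steadiest of the 6 genes. Its brightest probe set gave 7.96, 7.94, 7.89 and 7.93 in the knockout samples, against 8.04, 8.02, 7.86 and 8.02 in wild type. As for Nr1h4, wild type replicate 3 lay below the other wild type samples, here also below every knockout sample. The difference was -0.05 (SE 0.05, limma adjusted p = 0.533), with an interval of -0.17 to 0.06. The other 2 probe sets of Rxra differed by -0.08 and -0.07. The dimmer of these was under the array median of 4.58, at 3.89 in the knockout and 3.95 in wild type, within the non-specific range described below for Nr0b2. All 3 intervals held 0, and none reached below -0.22 or above 0.09.

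Nr5a2, which encodes LRH-1, had the smallest p of the 6 genes without passing. Its signal was 7.44, 7.44, 7.61 and 7.42 in the knockout samples, against 7.09, 7.43, 7.36 and 7.20 in wild type. The groups overlapped only through wild type replicate 2, whose 7.43 exceeded the lowest knockout value. The means were 7.48 ± 0.09 in the knockout and 7.27 ± 0.15 in wild type (SD, n = 4 each), a difference of 0.21 (SE 0.08, limma adjusted p = 0.0804) with an interval of 0.04 to 0.38. The difference passed with each array centred on its median (0.23, adjusted p = 0.0455) and without wild type replicate 2 (0.26, adjusted p = 0.0346). It was 0.13 with the hybridization controls of each array as a covariate (adjusted p = 0.28). These controls are spiked-in transcripts, which averaged 8.13 to 8.53 on the knockout arrays and 8.11 to 8.78 on the wild type arrays.

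Nr0b2, the gene of the repressor SHP and a target of FXR, was dim in every sample. Its signal was 5.37, 4.93, 5.05 and 4.72 in the knockout samples, against 4.79, 4.79, 4.68 and 4.83 in wild type. Knockout replicates 1, 2 and 3 lay above all wild type samples and knockout replicate 4 lay among them. Spread in the knockout (SD 0.27) exceeded that in wild type (SD 0.06). The difference was 0.24 (SE 0.11, limma adjusted p = 0.161), or 1.18-fold with an interval of 0.999-fold to 1.40-fold. Leaving out knockout replicate 4 gave 0.34 and passed (adjusted p = 0.0261). Leaving out knockout replicate 1 gave 0.13 (adjusted p = 0.324). The array carries 23 non-specific control probe sets, graded by GC content, which are designed to match no transcript. All but the one richest in GC lay between 2.63 and 5.04, a range that held 6 of the 8 Nr0b2 values. A difference so near this range may be understated.

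Fgf15 varied more between mice of 1 genotype than nearly any other transcript. Its signal was 7.68, 8.11, 8.07 and 6.85 in the knockout samples, against 7.03, 6.96, 6.37 and 8.17 in wild type. The highest of all 8 values was wild type replicate 4 and the lowest wild type replicate 3, so that the wild type group alone spanned the whole range of 1.79 units. The knockout group had 3 high samples and 1 low one. Wild type had 1 high sample and 3 lower ones. The within-genotype SD of 0.67 was larger than that of 99.9% of the 22535 probe sets at or above the median level, whose median SD was 0.10. Among the other genes, Nr0b2 stood at 94.0% on the same scale, Nr1h4 at 49.7% and Rxra at 19.9%. The mean difference of Fgf15 was 0.54 (SE 0.36, limma adjusted p = 0.345), which is 1.46-fold with an interval of 0.845-fold to 2.51-fold. Leaving out wild type replicate 4 gave 0.89 (adjusted p = 0.0529). Leaving out wild type replicate 3 gave 0.29 (adjusted p = 0.663). With 4 arrays a genotype, neither no change nor a doubling lies outside the interval from all 8.

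Fgfr4, the receptor that FGF15 uses in the liver, had 5 probe sets at low signal, and none passed the test. The brightest gave 5.19, 5.23, 5.13 and 4.99 in the knockout samples, against 5.10, 5.18, 5.12 and 5.06 in wild type. The groups overlapped throughout, and the difference was 0.02 (SE 0.06, limma adjusted p = 0.838). The other 4 ran from -0.11 to 0.06. Mean signals of the other 4 were 4.92, 4.81, 3.83 and 3.11 in the knockout, against 4.90, 4.92, 3.85 and 3.05 in wild type, all within the range of the non-specific controls. Identifiers of 2 of the 5, the brightest included, mark possible binding to other transcripts. Klb, the co-receptor of Fgfr4, lay in that range too, at 4.08 ± 0.06 in the knockout and 4.10 ± 0.12 in wild type (SD, n = 4 each). The brightest Fgfr4 probe set lay just above that range on 7 of 8 arrays, and inside it in knockout replicate 4.

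**Figure D2:**
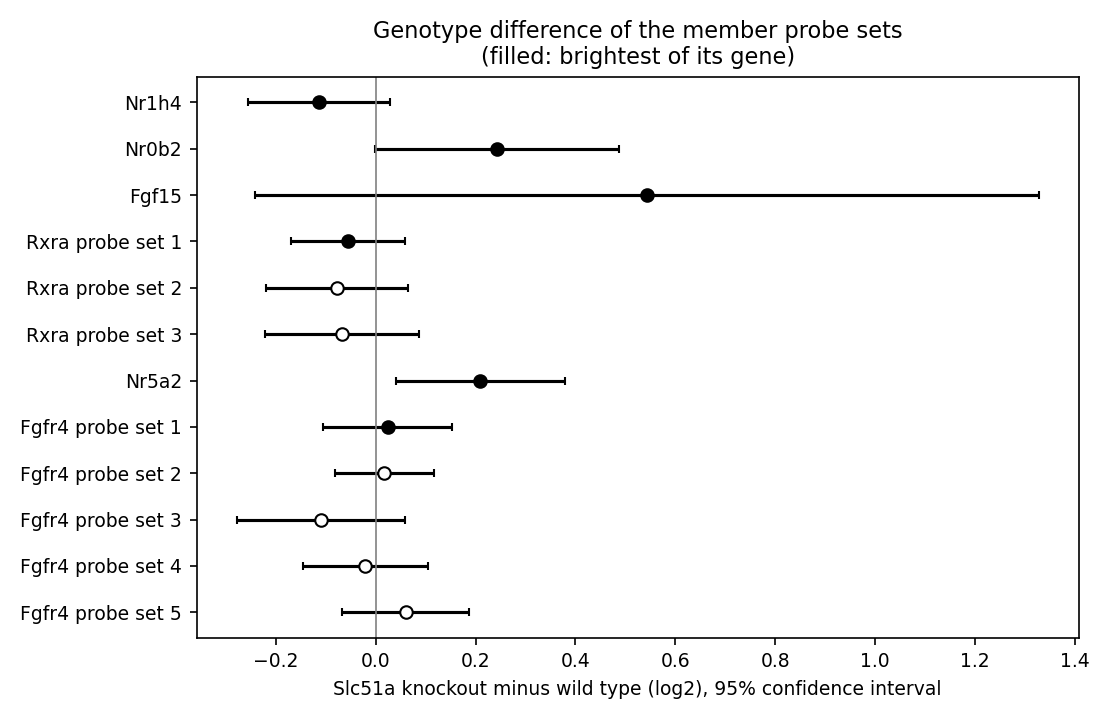
Slc51a knockout minus wild type on the log2 scale for the 12 probe sets, with limma's 95% confidence interval, the brightest probe set of each gene filled and the others open. The Fgf15 interval, -0.24 to 1.33, is the widest, and only the Nr5a2 interval, 0.04 to 0.38, leaves out 0.

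Whether the genes moved together from mouse to mouse was measured on deviations from the genotype means over the 8 arrays, so that a genotype difference could not make a correlation. There were 21 pairs: 15 among the 6 genes, and Fgf15 and Nr0b2 each against the FXR targets Fabp6, Slc51b and Slc10a2. By an exact 2-sided permutation test within genotype, 0 of 21 passed after adjustment over the pairs (lowest adjusted p = 0.763), and 1 had an unadjusted p under 0.05. With Spearman's rho 0 of 21 passed as well (lowest adjusted p = 0.899). The permutation test has 576 orders and can give no p below 0.001736. After adjustment a single pair could therefore pass only at its most extreme order. The lack of passing pairs says little about weaker relations.

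The strongest relation was between the receptor genes Nr1h4 and Rxra, with Pearson's r = 0.839 (exact permutation p = 0.0469, adjusted p = 0.763) and rho = 0.738 (exact permutation p = 0.0868, adjusted p = 0.899). Without the 2 samples farthest from the median Nr1h4 level, knockout replicate 3 and wild type replicate 1, r was 0.783. Wild type replicate 3, low for both genes, carried much of it, since r was 0.43 without that sample. Nr1h4 and Nr5a2 ran opposite, with r = -0.615 (exact permutation p = 0.186, adjusted p = 0.763) and rho = -0.548 (exact permutation p = 0.245, adjusted p = 0.948). Without the same 2 samples r was -0.189, so the value rests on them.

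For Fgf15 and Nr1h4, whose product induces it, the value depended on single samples. Over all 8, r was 0.041 (exact permutation p = 0.905, adjusted p = 0.972) and rho was -0.19 (exact permutation p = 0.707, adjusted p = 0.971), and r was 0.222 without the 2 samples. It was -0.755 when wild type replicate 3 was left out and 0.444 when knockout replicate 4 was. Fgf15 and Fgfr4, the gene of its hepatic receptor, had r = 0.261 (exact permutation p = 0.526, adjusted p = 0.85) and rho = 0.19 (exact permutation p = 0.698, adjusted p = 0.971). Their r was 0.809 without wild type replicates 3 and 4, which lie farthest from the Fgf15 median, 0.766 without wild type replicate 4 alone and -0.466 without knockout replicate 4. Fgf15 and Nr0b2, the pair of FXR targets among the 6 genes, had r = 0.431 (exact permutation p = 0.283, adjusted p = 0.763) and rho = 0.643 (exact permutation p = 0.129, adjusted p = 0.899). Their r was 0.864 without knockout replicates 1 and 3, which lie farthest from the Nr0b2 median, and 0.03 without knockout replicate 4. That sample was low for both genes. For Fgf15 against Fabp6, Slc51b and Slc10a2, r was -0.353, -0.096 and 0.035. For Nr0b2 against the same targets r was -0.221, 0.544 and 0.501, with large shifts when samples were left out. The Slc51b value was -0.271 without knockout replicate 1 and 0.99 without knockout replicate 4, and the Slc10a2 value was -0.065 without knockout replicates 1 and 3. Over 3 normalisations and each of 8 arrays left out in turn, the sign of r held for 7 of the 21 pairs. Groups of 4 are too small for a correlation within either genotype.

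**Figure D3:**
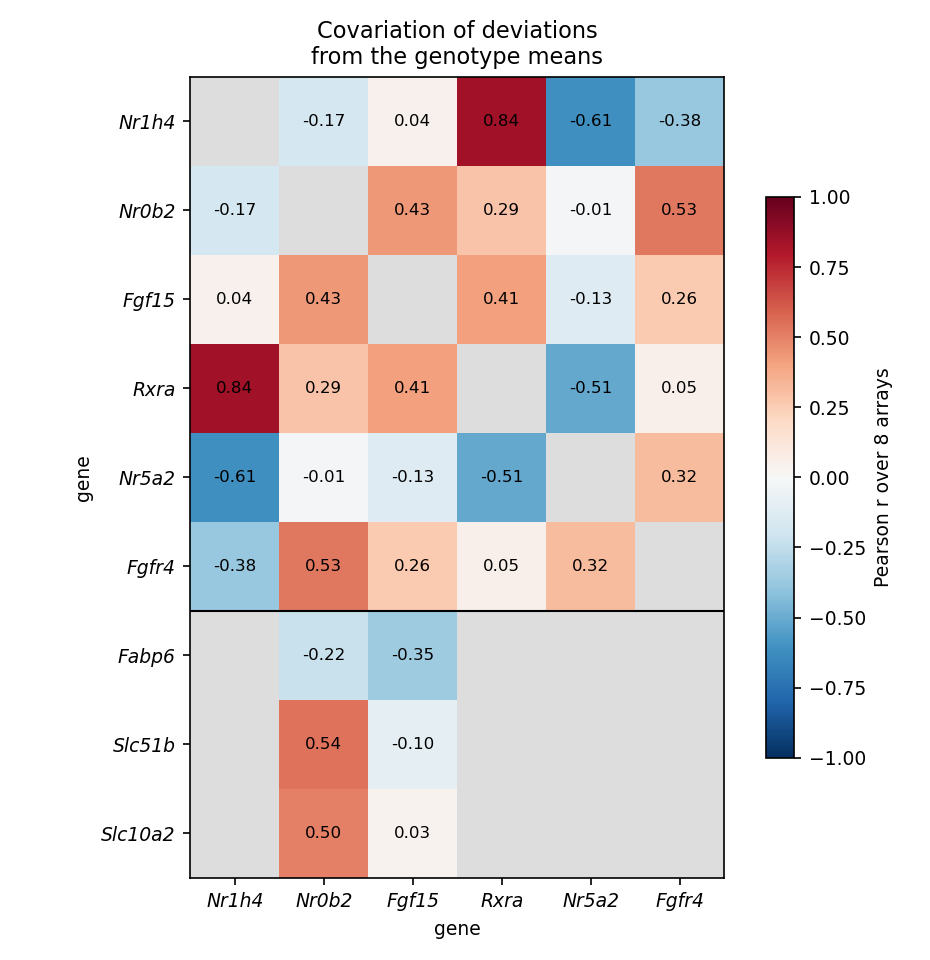
Pearson's r over 8 arrays between genes, after each value was set against its genotype mean, with red positive, blue negative and grey not computed. Nr1h4 with Rxra is highest at 0.84, Nr1h4 with Nr5a2 lowest at -0.615, and no pair passes after adjustment.

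Genes most like each member were ranked by r over the same 8 deviations among 10933 other genes at or above the median level. Closest to Fgf15 were Fam149b (0.959), Virma (0.936), Hao2 (0.935), Vmp1 (0.928) and Arsk (0.927). Of these Fam149b rose by 0.17 and Vmp1 fell by 0.17 in the knockout, and Hao2 spread over 0.892 units, the most of these 5. Closest to Nr1h4 were Hyou1 (0.986), Dnajb11 (0.979) and Stau2 (0.974), and closest to Rxra Marchf7 (0.985), Cltb (0.978) and Ccar2 (0.976). Nr0b2 was nearest to Fabp4 (0.98), Slc30a4 (0.98) and Ppp6r3 (0.976), Nr5a2 to Herpud2 (0.988), Arsa (0.978) and Fcho2 (0.959), and Fgfr4 to Tff1 (0.974), Slc2a13 (0.972) and Pkmyt1 (0.967). With 8 arrays and so many genes, high values are found for any transcript, and no test was made.

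Beside the 6 genes, 7 lists of the surrounding pathway held 63 measured genes without Slc51a, of which 8 rose and 11 fell. That is 30.2% called, where 28.4% of all 17097 genes were, 16.3% higher and 12.0% lower, so the lists as a whole changed about as often as other genes. Of these 19 genes, 8 kept their call in every alternative run that held them. They were Prmt1, Slc10a2, Ang, Il18, Map2k2, Dusp6, Nr1i3 and Cyp27a1, named after their values were seen. Nr1i3 was removed by the filter on dim probe sets, so its call was tested in 18 alternatives rather than 19. Another probe set was available for 9 of the 19, and it was called in the same direction for 4 and in the opposite direction for 0.

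Targets of FXR in the intestine moved in both directions. Leaving Slc51a aside, 1 of 8 measured targets rose, 3 fell and 4 missed the threshold (median 0.004, beside 0.01 for all genes). Il18, a cytokine gene that FXR agonists induce in mouse ileum, was at 10.03, 10.10, 10.33 and 10.30 in the knockout samples, against 8.64, 8.35, 7.68 and 8.64 in wild type. The groups were far apart, and it rose by 1.86 (SE 0.18, limma adjusted p = 3.99e-05). Ang, an antimicrobial ribonuclease gene induced by the same agonists, was at 7.70, 7.59, 7.45 and 7.35 in the knockout samples, against 8.48, 8.12, 8.30 and 8.20 in wild type. It fell by 0.75 (SE 0.09), opposite to Il18.

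The bile acid transporter genes Slc10a2 and Slc51b fell less than Ang, and Fabp6 was slightly higher without passing in the main fit. Slc10a2, which takes bile acids up at the apical side and is repressed when FXR is active in mouse, was at 11.09, 10.84, 10.97 and 10.98 in the knockout samples, against 11.36, 11.57, 11.32 and 11.44 in wild type. It fell by 0.45, and its other probe set by 0.39. Slc51b, the other subunit of the inactivated transporter, was at 11.30, 10.97, 11.07 and 11.17 in the knockout samples, against 11.52, 11.49, 11.41 and 11.51 in wild type. It fell by 0.36, a call lost without the 3 arrays lowest in hybridization controls (adjusted p = 0.0617). Fabp6, the bile acid binding protein of the ileal cytosol, was at 13.19, 13.16, 13.16 and 13.22 in the knockout samples, against 13.08, 13.14, 13.10 and 13.11 in wild type. Its groups did not overlap, as for 30.7% of all genes, but the difference of 0.07 did not pass (adjusted p = 0.254). It passed with a trended robust eBayes (adjusted p = 0.0403). At so high a signal probes approach saturation, which may understate a difference. Nos2, Car12 and Pltp differed by -0.007, 0.18 and 0.02, none past the threshold. Pltp averaged within the range of the non-specific controls in both genotypes.

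Of 12 measured partners and coregulators of FXR, 2 rose, 2 fell and 8 did not pass (median -0.12). Prmt1, an arginine methyltransferase, was at 8.38 ± 0.11 in the knockout and 7.93 ± 0.09 in wild type (SD, n = 4 each) and rose by 0.44 (adjusted p = 0.000611, limma). The histone methyltransferase gene Kmt2d fell by 0.25 and the coactivator gene Ncoa2 by 0.20, and both calls were lost without the 3 arrays (adjusted p = 0.123 and 0.0763). Rxrg, an RXR gene of muscle and brain, rose by 0.23 but lay at 4.23 in the knockout and 4.00 in wild type, within the range of the non-specific controls. Rxrb, the other widely expressed RXR gene, differed by 0.05 without passing.

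Of 11 measured genes of the FGF receptors and their signal chain, 3 rose, 2 fell and 6 did not pass (median -0.03). Among the 6, Klb, Fgfr1 and Sos1 averaged within the range of the non-specific controls in both genotypes. The MAP kinase kinase genes Map2k2 and Map2k1 rose by 0.35 and 0.21. The adaptor gene Shc1 rose by 0.19, a call lost in 8 alternatives, and the call of Map2k1 was lost in 6. The other probe sets of Map2k2 and Shc1 differed by 0.206 and 0.068, neither called. The docking protein gene Gab1 fell by 0.34, a call lost without the 3 arrays (adjusted p = 0.19). The receptor gene Fgfr2 fell by 0.24, but its other 2 probe sets differed by -0.03 and 0.07, and the mean of its probe sets did not pass (adjusted p = 0.242).

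Of 12 measured feedback and response genes of the FGF and ERK pathway, 1 rose, 2 fell and 9 did not pass (median -0.06). Among the 9, Dusp4, Spry4, Etv4, Etv5 and Il17rd averaged within the range of the non-specific controls in both genotypes, where a difference may be understated. Dusp6, a phosphatase that switches off ERK and is induced by it, was at 8.42, 8.06, 8.34 and 8.41 in the knockout samples, against 9.03, 9.15, 9.75 and 9.80 in wild type. Every knockout sample lay below every wild type sample, and it fell by 1.12 (SE 0.17, limma adjusted p = 0.00061). The inhibitor gene Spry2 rose by 0.25, a call lost in 4 alternatives, and its other probe set differed by 0.135 without a call. Spred2, another inhibitor, fell by 0.19, a call lost in 11 alternatives. The 4 other probe sets of Spred2 ran from -0.16 to 0.12, none called. The immediate early gene Egr1 differed by -0.91 without passing (adjusted p = 0.0702). Smooth muscle and T lymphocyte markers, given above, fell in the same samples.

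**Figure D4:**
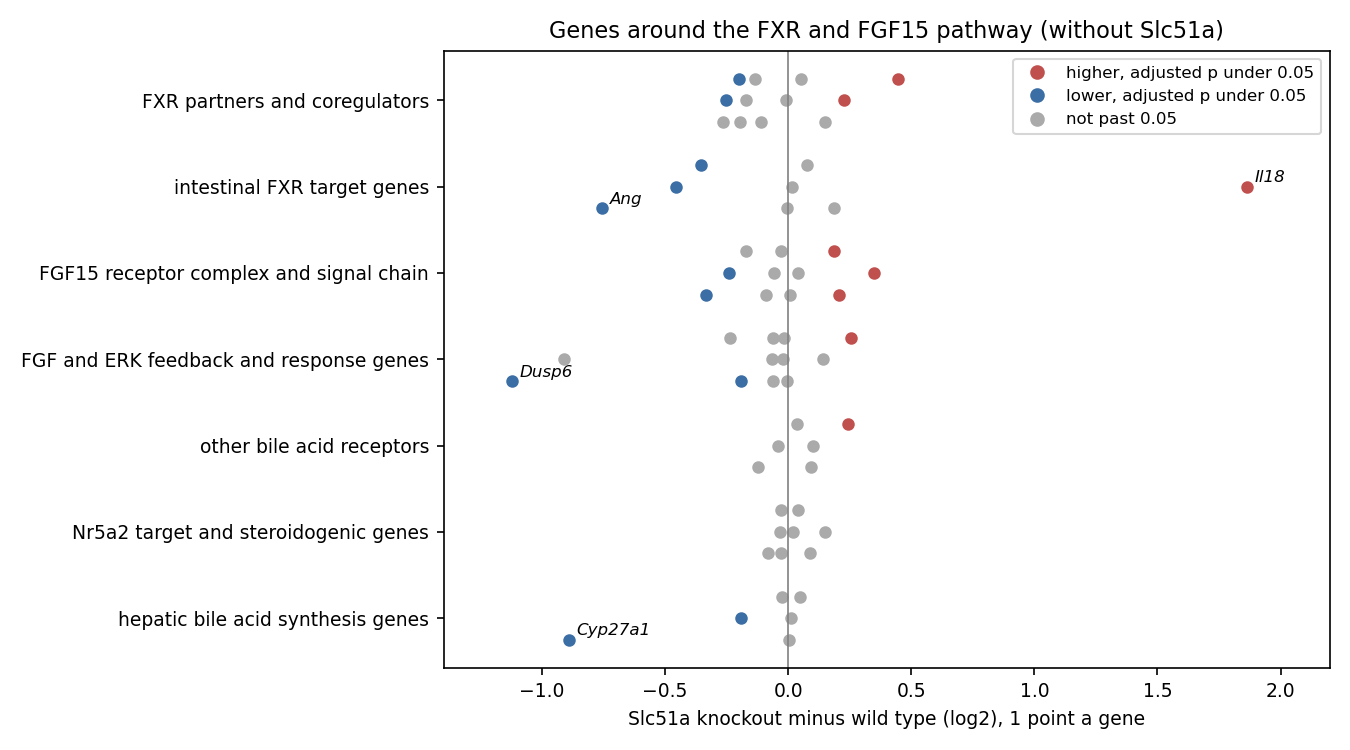
Slc51a knockout minus wild type on the log2 scale for the 63 measured genes of the 7 lists, 1 point a gene and 1 row a list, red where higher and blue where lower with adjusted p under 0.05, grey otherwise. The row of FXR targets holds the largest rise, Il18 at 1.86, and the row of FGF and ERK response genes the largest fall, Dusp6 at -1.12.

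Of 6 other bile acid receptors measured, 1 rose, 0 fell and 5 did not pass (median 0.06). Vdr, the vitamin D receptor that also binds lithocholic acid, was at 9.60 ± 0.08 in the knockout and 9.57 ± 0.12 in wild type (SD, n = 4 each), a difference of 0.04. Nr1i2, which encodes the xenobiotic and bile acid sensor PXR, was at 7.38 ± 0.09 and 7.42 ± 0.14, a difference of -0.04. Neither passed (adjusted p = 0.762 and 0.75). Nr1i3, which encodes the related receptor CAR, rose by 0.24, at 4.31 in the knockout and 4.07 in wild type, within the range of the non-specific controls. S1pr2, at 4.78 in the knockout and 4.90 in wild type, and Chrm3, at 3.74 and 3.65, lay in that range too. For S1pr2 and Chrm3 the lack of a call therefore says little. Gpbar1 had no probe set under a single symbol and was not analysed here.

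Of 8 genes of Nr5a2 targets and steroid synthesis, 0 passed in limma, by adjusted p, where 28.4% of all genes did. An unadjusted limma p under 0.05 was found for 0 of them, beside 31.9% of all probe sets. Ccnd1, a cyclin gene that LRH-1 induces, differed by 0.15 (adjusted p = 0.284). Of the 8 genes, 4 averaged under the array median in the knockout and in wild type alike, namely Cyp11a1, Cyp11b1, Hsd3b1 and Nr0b1. For these the lack of a call says little. Of 6 genes of hepatic bile acid synthesis, 0 rose, 2 fell and 4 did not pass (median -0.01). Cyp27a1, a sterol hydroxylase also made outside the liver, was at 6.36, 6.56, 6.30 and 5.95 in the knockout samples, against 7.17, 7.04, 7.45 and 7.07 in wild type. All knockout samples lay below all wild type samples, and it fell by 0.89 (SE 0.12, limma adjusted p = 0.000423). Baat, which conjugates bile acids, fell by 0.19, a call lost in 8 alternatives. Cyp7a1, the rate-limiting hydroxylase that FGF15 represses in liver, was at 3.71 in the knockout and 3.66 in wild type, among the non-specific controls. Cyp8b1, Cyp7b1 and Slc27a5 averaged within the range of these controls too.

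**Figure D5:**
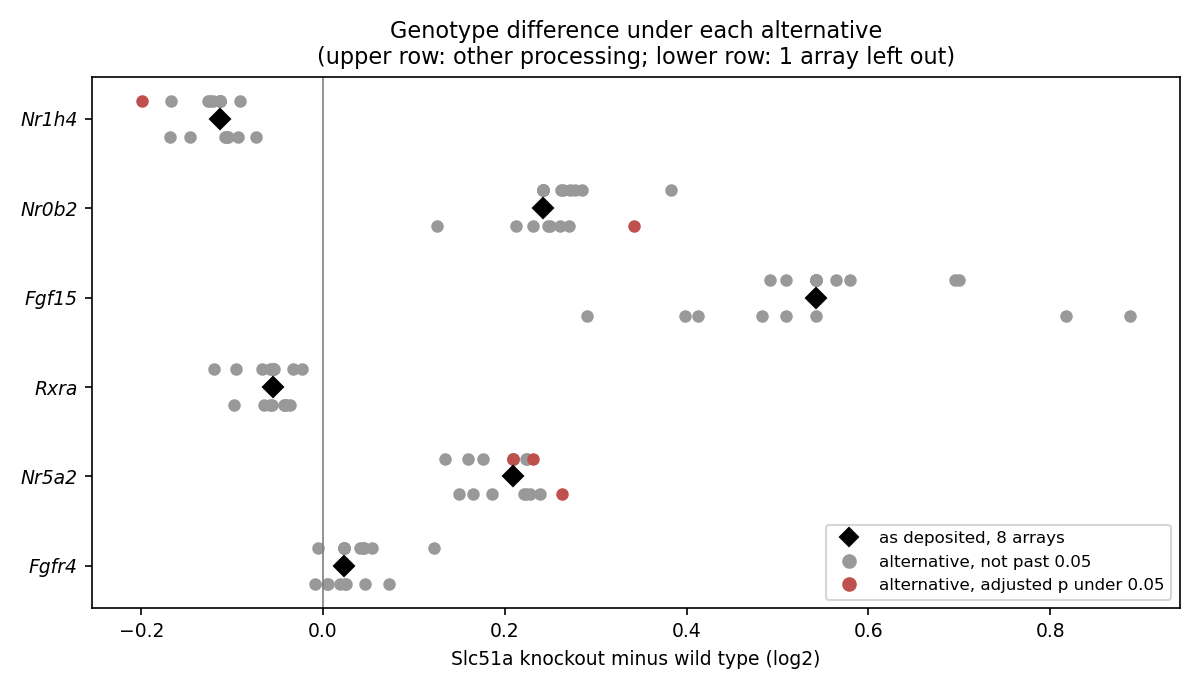
Slc51a knockout minus wild type on the log2 scale for the 6 genes, with the value from 8 arrays as deposited (black diamond), other processing (upper points) and each array left out (lower points), red where the adjusted p is under 0.05. Fgf15 runs from 0.29 to 0.89 with no red point, and red points appear for Nr1h4, Nr0b2 and Nr5a2.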

How the data were processed

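Ileal RNA (250 ng a sample) was labelled for Affymetrix GeneAtlas 3' arrays, per the labels' protocols. The deposited values are log2 signals per probe set, which the authors made by RMA according to the submitters' processing notes. The sources used here name no software version. RMA equalises the distributions of the arrays and compresses low signals. Detection calls, array strips and scan times were not used here. Precision is limited by the number of arrays.

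In the table were 45141 probe sets, 104 of them controls. Of the others, 28898 had 1 symbol, 551 several and 15588 none listed. By Entrez identifier 28689 were matched to RefSeq of GRCm38.p6 for current symbols. All 45037 non-control probe sets were fitted with limma 3.58.1 in R 4.3.3 (lmFit, eBayes), 2-sided, with Benjamini-Hochberg adjustment over all and a threshold of 0.05. A gene of a list was read from its brightest probe set, which gave 17097 genes. Of 81 listed genes, 63 were measured beside Slc51a. Simulated arrays of the same comparison had 45037 probe sets, of which 50 were changed by each of 0.25, 0.5, 1 and 2. The fit recovered 36% of changes of 0.25, 86% of 0.5 and 100% of 1 and of 2, with 9 false calls. In the real data 21.6% of probe sets were called, a far larger share, so these rates need not hold there.

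The members, lists and motif spellings were chosen with earlier results of these data known. Named genes were all members, Slc51a, 7 bile acid genes whatever their values, up to 4 called genes of each list, and the nearest genes by r (5 for Fgf15, 3 for each other member). Other genes are named after their values were seen. Alternatives were 1 probe set a gene, a filter on dim probe sets, 3 normalisations, a trended robust eBayes, weights per array, a replicate block, the mean of 9 hybridization controls as a covariate, averaging the probe sets of a gene, and leaving out each array. A fit without the 3 arrays lowest in these controls (wild type 2, knockout 3 and knockout 4), and the mean of probe sets for the count of all calls, were added after the data were seen.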

Additional observations from a re-analysis of the deposited data

Results flagged for a closer look

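In 38 groups of 4 arrays, those of the 12 member probe sets and of 7 other named genes, 3 held a sample far from the others by Dixon's ratio, above its 95% critical value; chance gives about 1 in 20 groups. Nr5a2 in knockout replicate 3 was at 7.61, above the other knockout samples (ratio 0.889), and without that sample its difference was 0.16 (limma adjusted p = 0.201). Rxra in wild type replicate 3 was at 7.86, below the other wild type samples (ratio 0.881), and without that sample its difference was -0.10 (limma adjusted p = 0.21). The third brightest probe set of Fgfr4 was at 4.69 in wild type replicate 1, below the other wild type samples (ratio 0.857).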

How the results depend on the processing

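Over 19 alternatives Fgf15 stayed between 0.29 and 0.89 and Rxra between -0.12 and -0.02, none past the threshold. The count of called member probe sets, 0, was 1 with median centring (Nr5a2, 0.23), cyclic loess (Nr1h4, -0.20) and the replicate block (Nr5a2, 0.21, adjusted p = 0.0446), and 0 to 1 on leaving out 1 array, where Nr5a2 ran from 0.15 to 0.26, Nr0b2 from 0.13 to 0.34 and Fgfr4 from -0.0086 to 0.0723. Fgfr4 was -0.006 with the mean of its probe sets. Same-number deviations correlated at -0.097 to 0.235, over 0.1 for 2 of 4 pairs, and 5 of 8 arrays correlated best with their own number. The highest value between different numbers was 0.195, for knockout replicate 2 and wild type replicate 3. Whether the replicate numbers pair the samples was not tested. With the block 9907 probe sets were called in place of 9729.

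The count of called probe sets was 5134 with 1 probe set a gene and 4927 with the mean of probe sets (fewer features tested), 6125 at a threshold of 0.01, and 5943 without the 3 arrays lowest in hybridization controls, with fewer samples. There 4 list genes rose and 5 fell. With the controls as a covariate 5 list genes rose, and on leaving out 1 array 5 to 8 rose and 9 to 11 fell. The call of Rxrg was lost in 6 alternatives. Of all called probe sets 54.6% were higher, 60.7% with median centring and 47.5% with cyclic loess, where 6 list genes rose and 16 fell. No pair of genes passed for covariation in any of 12 alternatives. On leaving out 1 array, too few orders remained for a single pair to pass. Those runs therefore cannot show whether this result is stable.

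Values near 0 changed sign. Fabp6 was -0.0299 with cyclic loess. Vdr was -0.0105 with quantile normalisation, -0.0487 with cyclic loess, -0.0164 with the covariate and -0.0034 to 0.0836 on leaving out 1 array. Nr1i2 was 0.0053 without the 3 arrays and -0.0872 to 0.0093 on leaving out 1 array. Klb was 0.0172 with the covariate and -0.0766 to 0.0103 on leaving out 1 array. The dimmest Rxra probe set was 0.0067 with the covariate. The fourth brightest Fgfr4 probe set was 0.0007 with median centring, 0.0024 with the covariate and -0.0572 to 0.0154 on leaving out 1 array, and the second brightest ran from -0.0018 to 0.0362. The cause of these changes was not tested.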

Other observations

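The array's control for non-specific binding with 25 GC bases lay at 7.09 to 7.5 on all arrays, above the other 22 such controls, so a signal of that size from a very GC-rich probe set need not be a transcript. Both marker lists of tissues beside the ileum held a gene that rose. Of 6 hepatocyte markers, 1 rose, 1 fell and 4 did not pass: Ttr, a thyroid hormone carrier, rose by 1.20 and Apob, which the intestine also makes, fell by 1.17. Of 4 measured pancreatic acinar markers, the elastase gene Cela1 rose by 1.17 and the other 3 did not pass.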
